A study of Mus musculus with 6 samples.

Results

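The miRNAs described here are the products of a pair of gene clusters, mir-23a/27a/24-2 and mir-23b/27b/24-1, in EVs from mouse colon explants and from BMDCs. The members were chosen by name, as 9 listed arms among the 1966 mature miRNAs of the deposited table, by a rule that uses no measured value and that was set with earlier results of these data known. They are mmu-miR-23a-3p, mmu-miR-23a-5p, mmu-miR-23b-3p, mmu-miR-27a-3p, mmu-miR-27a-5p, mmu-miR-27b-3p, mmu-miR-27b-5p, mmu-miR-24-3p and mmu-miR-24-2-5p, written from here on without the species prefix. A minimum of 10 counts in 3 or more libraries was met by 7 of the 9 arms, which were tested. The other 2, miR-27b-5p and miR-24-2-5p, are given by their counts. There were 3 colon EV libraries and 3 BMDC EV libraries. Colon EVs came from explants kept in culture for 16 hours and were taken from fraction 2 of an iodixanol gradient, a step that the labels give to the colon preparations alone and that the study's text gives in another place for both sources. BMDCs are bone marrow cultures differentiated into dendritic cells, here by 7 days of GM-CSF, and their EVs were collected from the medium. All mice carried the label Rab27A fl/fl, a floxed allele, the labels name no Cre, and age and sex are not given there. Source and medium, and the gradient if the labels hold, cannot be told apart. Nothing states that the 3 preparations of a source came from separate animals, so the p-values measure the spread between preparations, which may be technical.

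miRNAs are cut from hairpins whose arms are named 5p and 3p, and an arm loaded into an Argonaute protein represses mRNAs that pair with its seed, bases 2 to 8. The hairpins of each cluster lie close together and are copied from the same strand, and such neighbours are generally made from a shared primary transcript. The a cluster is known from blood cell formation, where the myeloid factor PU.1 activates it and it restrains B cell development. The b cluster is known from endothelial and mesenchymal cells, and miR-23b is known to restrain NF-κB signalling in autoimmune inflammation. miR-27 is known for its targets in lipid metabolism, and miR-24 for targets in the cell cycle.

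The sequences below show how alike the paralogs are and which arms the results turn on. They were taken from RefSeq on GRCm38.p6, where 8 of the 9 members matched and miR-23b-3p did not. Capitals mark the seed.
miR-23a-3p: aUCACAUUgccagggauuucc
miR-27a-3p: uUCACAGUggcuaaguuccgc
miR-27b-3p: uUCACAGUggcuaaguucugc
miR-24-3p: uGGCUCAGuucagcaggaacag
miR-23a-5p: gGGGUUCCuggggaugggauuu
miR-23b-5p: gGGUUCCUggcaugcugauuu
miR-27a-5p: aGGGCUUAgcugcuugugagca
miR-27a-3p and miR-27b-3p had 20 of 21 bases in common and the same seed. Their difference was C19U, with positions counted from the 5′ end and the base of miR-27a-3p first. The seeds of miR-23a-3p and miR-27a-3p matched at 6 of 7 bases. miR-27a-5p and miR-27b-5p were less alike, with 14 of 22 bases in common when compared position by position without gaps. The 5p arms of miR-23 were not compared. For the tested members with a sequence, no tested miRNA outside the members had the same seed, and the 4 other miRNAs of the table with the seed of miR-24-3p had too few counts to be tested. How the authors divided reads that match more than 1 miRNA is not given in the sources used here. The counts of miR-23a-3p, miR-23b-3p, miR-27a-3p, miR-27b-3p and miR-24-3p had a fractional part in all 6 libraries, so the a and b values of near-identical arms are uncertain to the extent that reads were shared.

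In GENCODE vM21 on GRCm38, the a cluster spans 404 bases of chromosome 8 on the plus strand. Its hairpins are Mir23a (84208518 to 84208592) and Mir27a (84208672 to 84208758), both outside other annotated genes, and Mir24-2 (84208815 to 84208921), in an exon of the lincRNA Gm26532. The b cluster spans 792 bases of chromosome 13 on the plus strand, within the protein-coding gene 2010111I01Rik. There, Mir23b (63300484 to 63300557) is intronic, and Mir27b (63300712 to 63300784) and Mir24-1 (63301208 to 63301275) overlap annotated exons of that gene. All 3 b hairpins also lie in an intron of Fancc on the opposite strand. miR-24-3p is made from Mir24-2 and from Mir24-1 with the same sequence, so its counts cannot be assigned to a cluster.

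**Figure D1:**
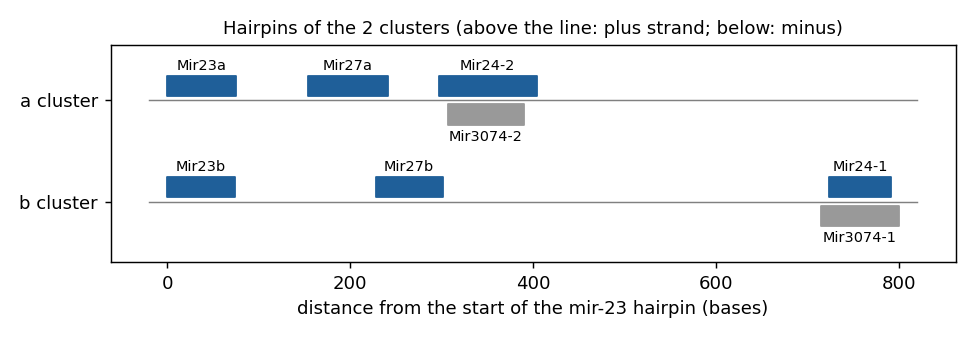
Map of the clusters, with the x axis giving the distance in bases from the start of the mir-23 hairpin and each bar a hairpin of GENCODE vM21. The a cluster ends after 404 bases and the b cluster after 792, and the antisense hairpins Mir3074-2 and Mir3074-1 lie across the mir-24 hairpins.

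The libraries held between 83997 and 645303 counts. The labelled sources were checked against miRNA markers. These lists were chosen with earlier results of these data known, so this is no independent check of the labels. All 8 epithelial markers were higher in colon EVs, where they held 22.4% to 29.8% of the counts against 0.374% to 0.791% in BMDC EVs, and all 6 haematopoietic markers were higher in BMDC EVs, with 29.5% to 30.8% against 0.458% to 1.08%. Of the 6 mesenchymal and muscle markers, 2 could be tested and both were higher in colon EVs, where the list held 0.134% to 0.207% of the counts against 0.00860% to 0.0250% in BMDC EVs. Among these, miR-214-3p was at or near 0 in both sources, with 1, 0 and 0 counts in colon EVs and 0 in every BMDC EV library. Another untested marker of this list, miR-133a-3p, had 1, 0 and 0 counts in colon EVs and 0, 3.5 and 0 in BMDC EVs. Both endothelial markers, miR-126a-3p and miR-126a-5p, were higher in colon EVs, with 0.0679% to 0.103% against 0.0239% to 0.0646%. The part of these other cell types in the results was not tested, and fewer EVs of a cell type and less miRNA per EV cannot be told apart.

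Products of both clusters were abundant in EVs of either source, and of the 3p arms miR-23b-3p and miR-27b-3p passed the test, both higher in colon EVs. Together the 9 members made up 2.50% ± 0.335 (SD, n = 3) of a colon EV library and 2.29% ± 0.314 (SD, n = 3) of a BMDC EV library, a difference within the spread between libraries (exact 2-sided permutation test, p = 0.5, where 3 against 3 cannot go below 0.1). miR-27b-3p alone held 44.6% to 52.9% of the members' counts in every library. By the quasi-likelihood test of edgeR (adjusted by Benjamini-Hochberg), 1 of the 7 tested members was higher in BMDC EVs, where 40.5% of all 220 tested miRNAs were, and 2 were higher in colon EVs, where 36.4% were. The first of these, miR-23a-5p, met the count filter only through the BMDC EV libraries, where it was high, so its entry into the count depended on that difference. In either direction 3 of the 7 members were called, beside 76.8% of all tested miRNAs, and whether these shares differ was not tested. Of the 7 members, 5 had a log2 fold change under 1 in either direction, against 26.4% of all tested miRNAs, and the median was −0.32 against 0.19 over all of them. The libraries of the sources did not overlap for 4 of the 7 members, beside 81.8% of all tested miRNAs. Colon EVs were above for miR-23b-3p and miR-24-3p (39.1% of all) and BMDC EVs for miR-23a-5p and miR-27a-5p (42.7% of all).

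**Figure D2:**
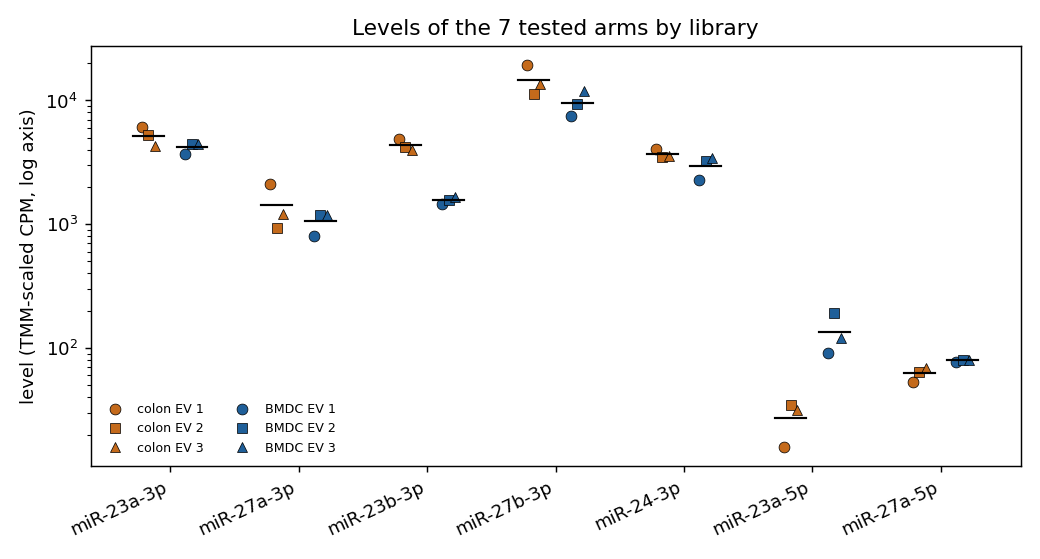
Levels of the 7 tested arms in each library, in CPM scaled by TMM on a log axis, with bars at the mean of the 3 libraries of a source. miR-23b-3p lies at 3962 to 4868 CPM in colon EVs and at 1470 to 1646 in BMDC EVs, and miR-23a-5p is the arm that lies clearly higher in BMDC EVs.

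Of the a cluster, the 3p arms did not pass the main test, and their calls changed with the filter and with the libraries used. Levels are in CPM, counts relative to library size as scaled by TMM, which assumes that most miRNAs do not differ. Here 76.8% of the 220 tested miRNAs were called, so that assumption is in doubt and levels and fold changes rest on the scaling. Values are in the order of replicates 1, 2 and 3 throughout, and a positive log2 fold change is higher in BMDC EVs. For miR-23a-3p, the colon EV libraries had 6075, 5291 and 4257 CPM and the BMDC EV libraries 3710, 4446 and 4475 CPM. The ranges of the sources overlapped, and edgeR put the difference at −0.31 ± 0.213 on the log2 scale (standard error; adjusted p = 0.187). It passed with no count filter, at −0.84 (adjusted p = 0.0187), without colon EV replicate 1, at −0.48 (adjusted p = 0.0334), and without colon EV replicate 3, at −0.70 (adjusted p = 0.0166). miR-27a-3p had 2117, 929 and 1218 CPM in colon EVs and 809, 1182 and 1178 CPM in BMDC EVs. Colon EV replicate 1, the most deeply sequenced library, stood above the rest, and the log2 fold change of −0.44 ± 0.294 (standard error) was not called by edgeR (adjusted p = 0.174). It passed with no count filter, at −1.01 (adjusted p = 0.00516), without colon EV replicate 2, at −0.94 (adjusted p = 0.0119), and without colon EV replicate 3, at −0.81 (adjusted p = 0.0381). With a filter on 2 libraries, the calls that passed were those of miR-23a-3p without colon EV replicate 3 and of miR-27a-3p without colon EV replicate 2, at −0.56 and −0.81, respectively. The move toward colon EVs with no count filter was shared by all 7 tested members. For miR-27b-3p the log2 fold change went from −0.62 to −1.17, and for miR-23a-5p from 2.35 to 1.84. The calls gained with no filter are therefore not particular to these arms.

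Of the b cluster, both 3p arms were higher in colon EVs. For miR-23b-3p, the colon EV libraries had 4868, 4208 and 3962 CPM and the BMDC EV libraries 1470, 1562 and 1646 CPM. Every colon EV library was above every BMDC EV library, with means of 4346 ± 468 and 1559 ± 88.2 CPM (SD, n = 3). The difference in edgeR was −1.48 ± 0.208 on the log2 scale (standard error; adjusted p = 3.66e-06), a level 2.79-fold higher in colon EVs. miR-27b-3p, the most abundant member, had 19330, 11268 and 13569 CPM in colon EVs and 7446, 9313 and 11896 CPM in BMDC EVs. Its highest BMDC EV library lay above its lowest colon EV library. In edgeR it passed with −0.62 ± 0.247 on the log2 scale (standard error; adjusted p = 0.0287), and this call was lost with other scalings, with −0.39 (adjusted p = 0.171) by the upper quartile and −0.16 (adjusted p = 0.526) by library totals alone. It was also lost without BMDC EV replicate 1, 2 or 3 in turn, with −0.071, −0.13 and −0.37, respectively. When the count filter asked for 2 libraries, it was lost without colon EV replicate 1 and without BMDC EV replicate 1, with −0.44 and −0.48. Among tested miRNAs, miR-27b-3p was number 20 in abundance in colon EVs and number 16 in BMDC EVs.

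miR-24-3p, which both clusters encode, had 4085, 3488 and 3541 CPM in colon EVs and 2260, 3245 and 3413 CPM in BMDC EVs. The lowest colon EV library was just above the highest BMDC EV library. This difference, −0.32 ± 0.218 on the log2 scale (standard error), was not called by edgeR (adjusted p = 0.183). It passed with no count filter, at −0.84 (adjusted p = 0.0191), and without colon EV replicate 1, 2 or 3, at −0.54, −0.63 and −0.61 (adjusted p of 0.0312, 0.0489 and 0.0402). With a filter on 2 libraries it did not pass in any of the 6 fits that left out a library. The direction of the 3p arms other than those of the b cluster rested on the scaling. By library totals alone the log2 fold change was 0.16 for miR-23a-3p, 0.14 for miR-24-3p and 0.039 for miR-27a-3p, and this scaling moved the median of all tested miRNAs by 0.45 on the log2 scale. miR-23b-3p kept its call and its direction under every scaling tried, between −1.61 and −1.02 on the log2 scale.

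**Figure D3:**
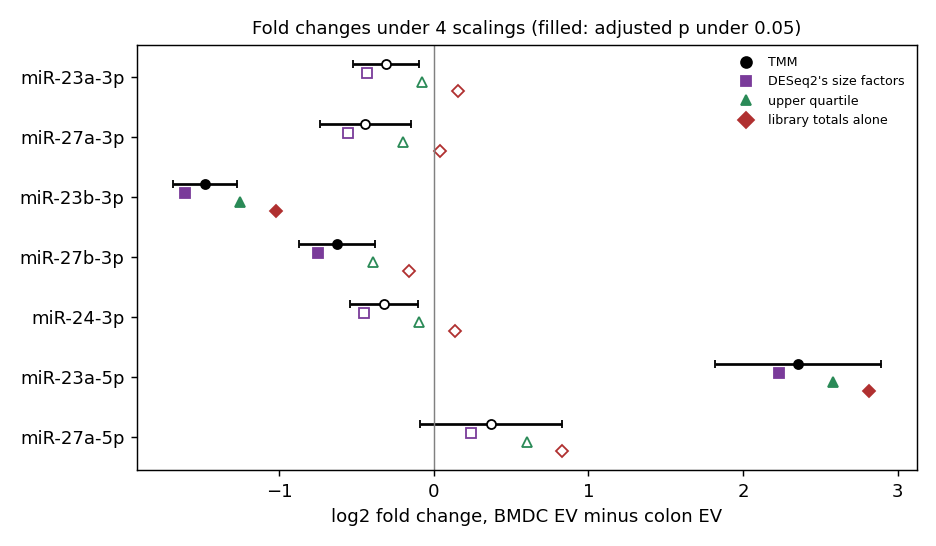
Log2 fold changes of the 7 tested arms between BMDC EVs and colon EVs under 4 scalings in edgeR, with the standard error drawn for TMM and filled points for an adjusted p under 0.05. miR-23b-3p and miR-23a-5p keep their side of 0 and stay filled under all 4 scalings, while miR-23a-3p, miR-27a-3p and miR-24-3p cross 0 with library totals alone.

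The a and b paralogs were summed, which removes the question of how reads were divided between them, though not with any other miRNA. Summed miR-23-3p had 9521 ± 1464 CPM in colon EVs and 5797 ± 518 CPM in BMDC EVs (SD, n = 3). Its log2 fold change in edgeR was −0.72 ± 0.214 (standard error; adjusted p = 0.00495), and by library totals alone it was −0.26 (adjusted p = 0.229). Summed miR-27-3p had 16097 ± 4915 and 10659 ± 2427 CPM (SD, n = 3), respectively. Here edgeR gave −0.60 ± 0.252 on the log2 scale (standard error; adjusted p = 0.0388), and the call was lost by the upper quartile and by library totals alone, with −0.42 and −0.14, respectively. Without BMDC EV replicate 1, 2 or 3, the change was −0.29, −0.45 and −0.36 for summed miR-23-3p and −0.081, −0.30 and −0.36 for summed miR-27-3p, and none of these passed the test. With the count filter on 2 libraries, summed miR-23-3p passed with any 1 library left out, and summed miR-27-3p was lost without colon EV replicate 1, at −0.40, and without BMDC EV replicate 1, at −0.52.

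The balance of the a and b paralogs passed the test between the sources for miR-23 and did not for miR-27. A ratio of counts within a library needs no scaling between libraries. There were 0.801, 0.795 and 0.932 counts of miR-23b-3p per count of miR-23a-3p in the colon EV libraries and 0.396, 0.352 and 0.368 in the BMDC EV libraries. The libraries of the sources did not overlap, and the b paralog held a share of miR-23-3p of 45.7% ± 2.22 in colon EVs and of 27.1% ± 1.17 in BMDC EVs (SD, n = 3 each). In edgeR's test of usage within a family, over the 21 families of lettered paralogs with at least 2 tested miRNAs, the log2 change of the b to a ratio was −1.17 (adjusted p = 0.00184). The same test called 52.4% of these families, and miR-23-3p was number 7 of 21 by its p-value. The change stayed between −1.22 and −1.11 under all alternatives tried and passed the test in each.

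miR-27 was dominated by its b paralog in every library. There were 9.13, 12.1 and 11.2 counts of miR-27b-3p per count of miR-27a-3p in the colon EV libraries and 9.18, 7.87 and 10.1 in the BMDC EV libraries. These ranges overlapped, with a b share of 91.4% ± 1.16 in colon EVs and of 90.0% ± 1.14 in BMDC EVs (SD, n = 3 each). The log2 change of −0.18 did not pass the test of usage in edgeR (adjusted p = 0.649) and lay between −0.36 and −0.08 under the alternatives. The b to a ratio of miR-23 relative to that of miR-27, a comparison chosen after the ratios were seen, was lower in every BMDC EV library than in every colon EV library, with mean log2 values of −4.59 ± 0.157 and −3.67 ± 0.222 (SD, n = 3; exact 2-sided permutation test, p = 0.1, the smallest possible).

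**Figure D4:**
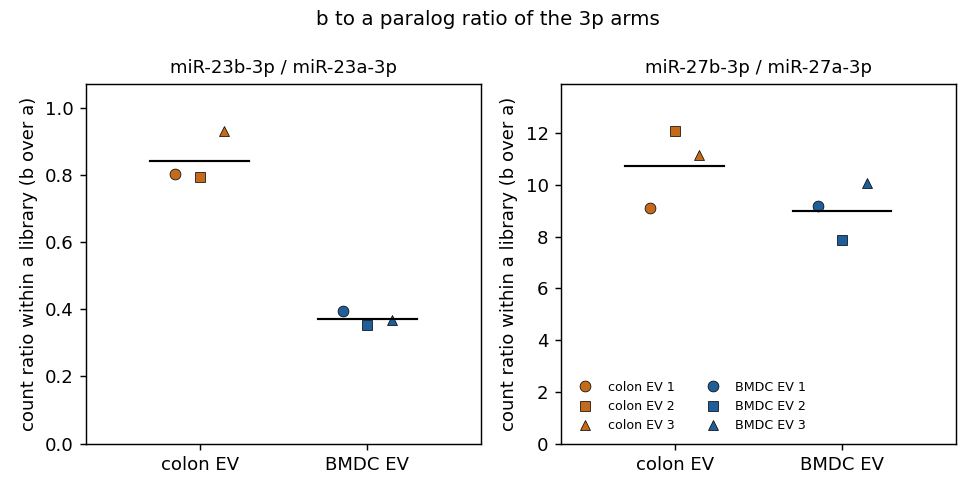
Counts of the b paralog per count of the a paralog within each library, for miR-23-3p on the left and miR-27-3p on the right, with bars at the geometric mean of a source. The ratio of miR-23 lies at 0.795 to 0.932 in colon EVs and at 0.352 to 0.396 in BMDC EVs, while that of miR-27 lies at 7.87 to 12.1 with the sources overlapping.

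The proportions of miR-27 to miR-23 within a cluster overlapped between the sources for the a cluster and not for the b cluster. For the a cluster, there were 0.348, 0.176 and 0.286 counts of miR-27a-3p per count of miR-23a-3p in colon EVs and 0.218, 0.266 and 0.264 in BMDC EVs, and the sources overlapped. For the b cluster, there were 3.97, 2.68 and 3.42 counts of miR-27b-3p per count of miR-23b-3p in colon EVs and 5.07, 5.96 and 7.22 in BMDC EVs. Every BMDC EV library was above every colon EV library, by 0.86 in mean log2 ratio. miR-27 thus had fewer counts than miR-23 in the a cluster and more in the b cluster, in each of the 6 libraries. miR-24-3p had 0.367 to 0.431 counts per count of summed miR-23-3p in colon EVs and 0.436 to 0.558 in BMDC EVs, again without overlap. Relative to summed miR-27-3p it had 0.190 to 0.286 and 0.261 to 0.309, with overlap. Over the 8 ratios compared, the exact 2-sided permutation test gave at least p = 0.1, the smallest value that 3 against 3 libraries allow, and at least 0.2 after Benjamini-Hochberg adjustment. Counts of different miRNAs also depend on how well each is captured by the library kit, so a ratio of different miRNAs compares sources more safely than it gives amounts.

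The 5p arm of miR-23a was rare and higher in BMDC EVs. The colon EV libraries held 8, 7 and 5 counts of miR-23a-5p and the BMDC EV libraries 14.5, 19.3 and 24.5, although the colon EV libraries were on the whole deeper. On the CPM scale these were 15.9, 34.8 and 31.4 in colon EVs and 90.6, 190 and 121 in BMDC EVs, and the sources did not overlap. For miR-23a-5p edgeR gave 2.35 ± 0.538 on the log2 scale (standard error; adjusted p = 0.000606), a level 5.11-fold higher in BMDC EVs. The arm entered this test through the BMDC EV libraries alone, since its colon EV counts were all under 10. With no count filter, which does not depend on the sources, the difference was 1.84 (adjusted p = 0.0126), and without colon EV replicate 1 it was 1.66 (adjusted p = 0.0163). As a share of both arms, it held 0.261% (95% exact binomial interval 0.113% to 0.513%, for counting error only) in the lowest colon EV library and 0.732% (0.238% to 1.70%) in the highest. In BMDC EVs it held 2.39% (1.31% to 3.97%) in the lowest library and 4.10% (2.49% to 6.33%) in the highest. The ratio of 5p to 3p changed by 2.66 on the log2 scale in edgeR's usage test (adjusted p = 0.000290), which took in 38 hairpins and called 18.4% of them. The hairpin was among the 38 through the same BMDC EV counts, and with no count filter the change was 2.68 (adjusted p = 0.00209). The less abundant arm changed toward BMDC EVs relative to the more abundant arm in 26 of the 38 hairpins, with a median of 0.45 over all 38, and among these 26 the change of miR-23a-5p was number 2. Both the 26 and the rank rest on the count filter, which miR-23a-5p met only through BMDC EVs. The change stayed called in all 13 alternatives that gave a value, between 2.13 and 2.91. Each of these used a count filter that the arm met only through BMDC EVs, so they are no independent support. Fits without a BMDC EV library gave no value under the filter on 3 libraries, since the arm then dropped out.

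miR-23b-5p is not among the 9 members and had too few counts for the main test. It had 5.5, 3 and 2 counts in colon EVs and 18, 8.5 and 16.5 in BMDC EVs, the colon values being near the floor of 3 counts. Its share of both arms of mir-23b was 0.244% to 0.353% in colon EVs and 4.66% to 7.35% in BMDC EVs. The highest colon EV library had a 95% exact interval of 0.0728% to 1.03% and the lowest BMDC EV library one of 2.69% to 7.46%. With no count filter, edgeR's test of usage over 195 hairpins called mir-23b (adjusted p = 6.31e-06) and mir-23a (adjusted p = 0.00209), and it called 6.15% of hairpins. The arm comparison of mir-23b was chosen after its values were seen. Both mir-23 hairpins had a higher 5p share in BMDC EVs, while the 3p arm of mir-23b was lower there. The counts of miR-23a-5p and of miR-23b-5p each had a fractional part in 3 libraries, for miR-23a-5p the BMDC EV libraries. These low counts are thus also uncertain to the extent that reads were shared.

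The 5p arms of the mir-27 hairpins passed no test. miR-27a-5p had 27, 13 and 11 counts in colon EVs and 11.5, 8 and 16 in BMDC EVs, or 53.6, 64.6 and 69.1 CPM and 77.7, 80.1 and 80.5 CPM. The CPM values did not overlap, yet at these counts the difference of 0.37 ± 0.461 on the log2 scale (standard error) was not called by edgeR (adjusted p = 0.465). Without colon EV replicate 1 it was −0.039, and 0.18 when the count filter asked for 2 libraries. miR-27a-5p held 2.47% to 6.50% of both arms in colon EVs and 6.35% to 8.76% in BMDC EVs, with the lowest share in colon EV replicate 1. The difference of its arm ratio, 0.81 on the log2 scale, was not called by edgeR's usage test (adjusted p = 0.363) and was 0.27 to 1.08 under the alternatives. miR-27b-5p had 4, 1 and 1 counts in colon EVs and 2, 2 and 0 in BMDC EVs, at or near the floor, so that no fold change is given. Its share of both arms was at most 0.215% in any library, although miR-27b-3p was the most abundant member.

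**Figure D5:**
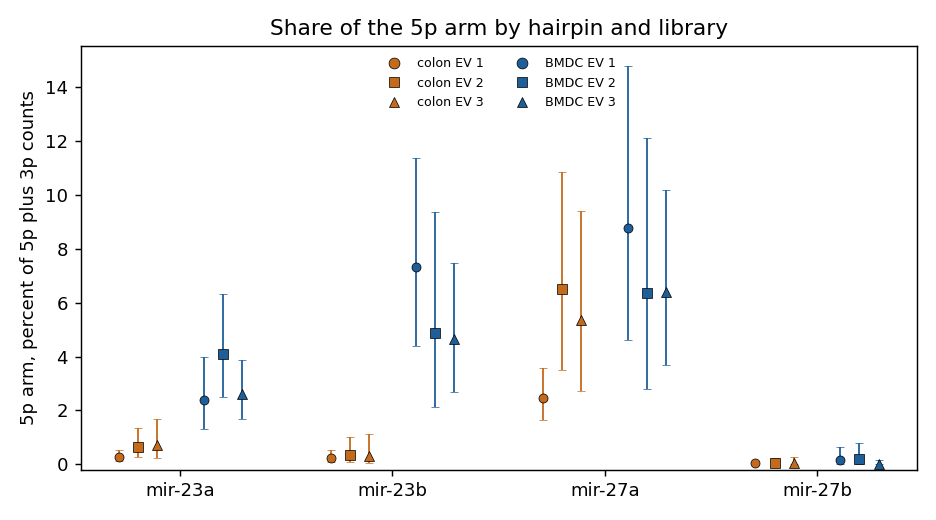
Share of the 5p arm in the summed 5p and 3p counts of each hairpin, in percent, with 95% exact binomial intervals that cover counting error only. The 5p shares of mir-23a and mir-23b lie at 2.39% to 7.35% in BMDC EVs and at 0.244% to 0.732% in colon EVs. The intervals of mir-23a still overlap, with colon EV replicate 3 reaching 1.70% and BMDC EV replicate 1 starting at 1.31%. For mir-27a the shares themselves overlap between the sources, and those of mir-27b are near 0.

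The 5p arms of the mir-24 hairpins were not detected. miR-24-2-5p, and miR-24-1-5p of the b cluster, had 0 counts in all 6 libraries, where miR-24-3p had 324 to 2057 counts. A count of 0 allows up to 3 counts, which is up to 0.146% of the miR-24-3p counts in colon EV replicate 1 and up to 0.926% in BMDC EV replicate 2. miR-24-3p comes from both hairpins, so these values are not limits on the 5p share of either hairpin. On the opposite strand of the mir-24 hairpins, miR-3074-1-3p and miR-3074-2-3p had 0 counts in every library and miR-3074-5p had at most 1.5.

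Outside the members, the miRNAs with the most similar pattern were sought for the 5 abundant arms, as those with the smallest root mean square difference of centred log2 CPM over the 6 libraries. For miR-23a-3p these were miR-148b-3p, at 0.0883, let-7g-5p, at 0.123, and let-7d-5p, at 0.199. For miR-23b-3p they were miR-26a-5p, at 0.192, let-7e-5p, at 0.226, and miR-3068-5p, at 0.228, each higher in colon EVs by edgeR's test (adjusted p at most 6.94e-05). let-7g-5p was among the nearest 3 of miR-27a-3p, at 0.235, of miR-27b-3p, at 0.201, and of miR-24-3p, at 0.129. The others were miR-29b-3p and miR-148b-3p for miR-27a-3p, miR-21a-5p and miR-7a-5p for miR-27b-3p, and miR-147-5p and miR-148b-3p for miR-24-3p. By the same measure miR-23b-3p lay at 0.484 to 0.639 from the other 4 abundant arms, and these 4 lay at 0.148 to 0.310 from each other. These distances describe the 6 libraries, which fall into the 2 sources.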

How the data were processed

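Small RNA libraries of 3 colon EV and 3 BMDC EV preparations, made with a QIAseq miRNA kit, were analysed. For each mature miRNA the authors deposited an estimated count per library. These counts were not normalized and not all whole numbers. The submitters' processing notes name STAR 2.7.6a, featureCounts 1.6.3, DESeq2 1.30.1 and GRCm38, and the handling of molecular identifiers and of reads matching several miRNAs is not given in the sources used here. Sources and replicates were taken from the labels, and 0 columns were unmatched.

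Counts were rounded, and 220 miRNAs with at least 10 counts in 3 libraries were tested in R 4.3.3 with edgeR 4.0.16 (TMM, quasi-likelihood, Benjamini-Hochberg). The standard error is the log2 fold change over the root of F. Usage within families and hairpins was tested with edgeR's diffSpliceDGE. Ratios took a pseudocount of 0.5 and an exact permutation test in scipy 1.17.1. The tests were run on simulated data first. Alternatives were other scalings, DESeq2 1.42.0, limma 3.58.1, other filters, unrounded counts, other pseudocounts, a replicate block and leaving out each library. A filter on 2 libraries with each library left out was added after the data were seen. Total counts were 83997 to 645303, and 3 counts were 5.96 to 30.0 CPM.

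The members and lists were chosen with earlier results of these data known. The miRNAs named are the members, other products of both loci, tested miRNAs sharing a member's seed and the 3 nearest in pattern to each of 5 arms. miR-214-3p, miR-133a-3p and the endothelial markers are named from the marker list, chosen after their values were seen. Positions are 1-based.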

Additional observations from a re-analysis of the deposited data

How the results depend on the processing

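Of the 7 tested members, 2 were called higher in colon EVs. This count was 1 by the upper quartile and by library totals alone, and 5 with no count filter, where miR-23a-3p, miR-27a-3p and miR-24-3p also passed. It was 1 to 5 with each library left out, and without a BMDC EV library it was 1 when the filter asked for 3 libraries. The member called higher in BMDC EVs, miR-23a-5p, was 0 or 1, the 0 arising because the filter removed it when a BMDC EV library was left out. The colon EV counts of this arm, 8, 7 and 5, did not reach the minimum of 10, so it met the filter on 3 libraries only with all BMDC EV libraries present. With no filter, all 7 tested members moved toward colon EVs, and the log2 fold change of miR-27a-5p went from 0.37 to −0.14. By library totals alone it was 0.16 for miR-23a-3p, 0.14 for miR-24-3p and 0.039 for miR-27a-3p. With the filter on 3 libraries, signs turned with a library left out for miR-23a-3p (−0.70 to 0.17), miR-24-3p (−0.63 to 0.23), miR-27a-3p (−0.94 to 0.14) and miR-27a-5p (−0.039 to 0.83). When the filter asked for 2 libraries none of these signs turned, at −0.56 to −0.23, −0.49 to −0.16, −0.81 to −0.089 and 0.18 to 0.39, respectively. The miR-27a-3p to miR-23a-3p ratio, which uses no filter, also turned (−0.34 to 0.15). The cause was not tested.

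For the summed paralogs, the change by library totals alone was −0.26 for miR-23-3p and −0.14 for miR-27-3p, and by the upper quartile −0.42 for miR-27-3p. With each library left out they were −1.12 to −0.29 and −1.05 to −0.081. With the count filter on 2 libraries, summed miR-27-3p was lost without colon EV replicate 1 (−0.40) and without BMDC EV replicate 1 (−0.52), and summed miR-23-3p passed each time. The usage tests of miR-23-3p, miR-27-3p, mir-23a and mir-27a kept their direction and their side of the threshold under all alternatives that gave a value. For mir-23a, each of these alternatives used a count filter that miR-23a-5p met only through BMDC EVs.

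Deviations from the source means were not shared by same-numbered libraries (correlations of −0.101, −0.0252 and −0.0995 across miRNAs for replicates 1, 2 and 3), so the numbers were not taken as a pairing. With the replicate block, 2 members were higher in colon EVs and 1 in BMDC EVs, and the block changed no call.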
